A study of Mus musculus with 3 samples.

Results

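The comparison described here sets CD8 T cells from mice labelled VILLIN-HA/CL4-TCR against CD8 T cells from mice labelled CL4-TCR, with 1 array on each side, so that 2 of the 3 samples of the study enter it. The arrays were chosen by their source names, and the VILLIN-HA/CL4-TCR sample is called double-transgenic below, after the reading of its name. The CL4-TCR transgene encodes a receptor through which CD8 T cells bind a peptide of the influenza coat protein hemagglutinin (HA), and the labels of this sample name no antigen transgene. The name VILLIN-HA/CL4-TCR was read as mice that carry both this receptor and an HA transgene under the promoter of villin, a gene of gut epithelial cells, so that the T cells meet their antigen as a product of the body's own gut. The genetic modification given for this sample names the receptor alone. Both samples came from the MLN, taken here as the mesenteric lymph node that drains the gut, and both were described as CD8 T cells. The third sample, Villin-HA + CL4-TCR, combines the same elements in a way the labels do not spell out, and its values are given beside the others where they help. The study lists ordinary, activated and regulatory CD8 T cells, without tying either HA sample to one of these names. Age, sex, strain, the number of mice and the sort gate are not stated either, so nothing is known here about spread between animals.

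Each array reported 45101 probe sets as a linear MAS5 signal scaled to a trimmed mean of 150. A probe set is a group of short oligonucleotides meant to measure 1 transcript, although 932 of them carried several gene symbols. With 1 array a side there is no replicate spread, so no test was possible, and each ratio below describes this pair of arrays, not the genotypes in general. The agreement between probe sets of the same gene is the measure of error used throughout. It is available only for genes with several measured probe sets, and all of these read the same RNA samples. Values below a floor of 31.7, the median of all values, were raised to it. A gene is called higher or lower where its chosen probe set, the brightest over the 3 arrays, differed by at least 2-fold, which is 1 on the log2 scale. Folds against a value under the floor are bounds, marked "at least". All log2 differences are the VILLIN-HA/CL4-TCR array minus the CL4-TCR array.

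A naive T cell rests outside the cell cycle, keeps itself alive through the interleukin 7 receptor, and circulates through lymph nodes with the help of the transcription factor Klf2 and its target receptors. When its receptor binds antigen, it switches these genes off, switches on early response factors of the Egr and Nr4a families and the cell cycle, and divides. Antigen that persists as self drives, in addition, inhibitory receptors such as Pdcd1 and Lag3, and often withholds the cytotoxic granule proteins that a cell facing infection would make. The genes below are ordered by these steps.

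Over the whole array, 837 of 11260 measured genes were called higher, a share of 7.43%, and 746 were called lower, a share of 6.63%. Together these make 14.1% of the measured genes, and the median log2 difference of all measured genes was -0.036, with 5342 genes above 0 and 5913 below. These shares are the background for every list count below. Counted by probe set, 1463 of 24504 were higher (5.97%) and 1685 were lower (6.88%), or 12.8% in either direction. The side with higher values was the more extreme: 84 genes were at least 8-fold higher and 8 were at least 8-fold lower. Of the calls, 246 higher and 91 lower ones are bounds. The 19453 probe sets that cleared the floor on both sides had signals with a Pearson correlation of 0.925 on the log2 scale, across probe sets that share both libraries.

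**Figure D1:**
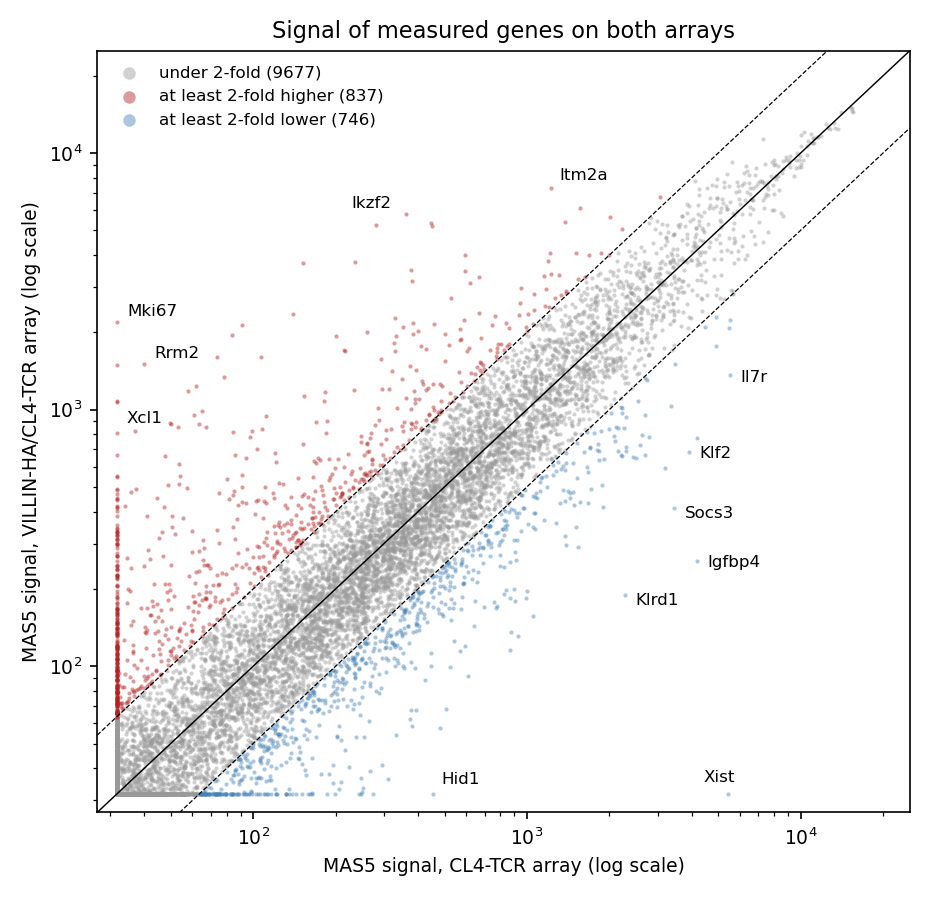
Signal of each of the 11260 measured genes on the CL4-TCR array (horizontal) and the double-transgenic array (vertical), both on log scales, with values under the floor drawn at it, the line of equality solid and 2-fold dashed. The 837 genes in red were at least 2-fold higher on the double-transgenic array and the 746 in blue at least 2-fold lower, and the genes farthest from the line on the upper left include Mki67, Rrm2 and Ikzf2.

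Several facts of the samples move with this comparison, and their part in the results was not tested. Cd8a read 2714 on the CL4-TCR array and 2893 on the double-transgenic array, and Cd4 and Vil1 lay under the floor on both. Of the 9 markers of CD8 T cells measured, 1 differed by 2-fold, the adhesion receptor Cd2, described with the receptor signalling genes. That is near the share of 14.1% called over all measured genes. The median log2 difference of the 9 was -0.54, with 4 above 0 and 5 below. Markers of macrophages and monocytes were higher: 7 of 16 measured were called higher and none lower, and their summed signal was 3664 on the CL4-TCR array and 9107 on the double-transgenic array. Lysozyme led them, with Lyz1 at 152 and 3730.0, although 1 of its 3 probe sets read a log2 difference of -0.12, and Csf1r, the receptor of macrophage colony-stimulating factor, read 40.9 and 384. Other defining macrophage genes, Cd14, Itgam, Mrc1 and Cd163, lay under the floor on both arrays. Among B cell and plasma cell markers, Ms4a1, Cd22, Jchain and Derl3 were called higher, while the summed B cell markers read 3631 and 3667. Of 9 measured dendritic cell markers 3 were called higher and none lower, the MHC class II genes H2-Aa, H2-Eb1 and Cd74 at 2.40-fold to 2.73-fold, and the list summed to 1069 and 1549. Markers of NK and innate-like cells summed to 1208 and 425, a list in which Eomes, also a gene of CD8 T cells, read 993 and 185. Sex also differed in the transcripts of these mice. Xist, the RNA of the inactive X chromosome, read 5442 on the CL4-TCR array and 2.5 on the double-transgenic array, and the Y-linked Eif2s3y read 13.4 and 1496, so that sex and genotype cannot be told apart here. The ratio of the 3′ to the 5′ probe set of Gapdh, a sign of RNA length, was 18.4 and 46.2, and that of Actb was 1.98 and 2.46. On the third array these ratios were 3.35 and 1.80, and its median signal was 35.3, beside 30.6 and 29.4. The third array held both Xist and Y-linked transcripts. Such differences also enter comparisons with the third array, and their part was not tested. Of 11 common reference genes, Tfrc and Pgk1 were called higher, Hprt read 1.69-fold higher, and Actb, B2m, Polr2a and Rplp0 differed by at most 1.09-fold. The arrays measured RNA of whole samples, in which fewer cells of a type and less RNA per cell cannot be told apart.

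Genes of cell division made up the broadest difference. Their promoters carry known elements, and the sequences of 6 are shown because they represent genes of mitosis (Cdk1, Top2a, Cdc20, Ccnb2) and of replication (Mcm6, Prim1) that were all higher. Each line holds the 150 bases before the annotated transcript start in RefSeq on GRCm38.p6, on the gene's strand, 5′ to 3′. Capitals mark the cell cycle homology region TTTGAA, the CCAAT box and the E2F-type site GCGGGAA, each read on either strand. The windows are chr10:69352913-69353062 (minus strand) for Cdk1, chr11:99024190-99024339 (minus) for Top2a, chr4:118437344-118437493 (minus) for Cdc20, chr9:70421555-70421704 (minus) for Ccnb2, chr1:128359706-128359855 (minus) for Mcm6 and chr10:128015065-128015214 (plus) for Prim1.
Cdk1: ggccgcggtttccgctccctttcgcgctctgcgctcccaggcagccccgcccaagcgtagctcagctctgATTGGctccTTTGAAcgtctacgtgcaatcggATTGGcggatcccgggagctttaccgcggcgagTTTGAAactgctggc
Top2a: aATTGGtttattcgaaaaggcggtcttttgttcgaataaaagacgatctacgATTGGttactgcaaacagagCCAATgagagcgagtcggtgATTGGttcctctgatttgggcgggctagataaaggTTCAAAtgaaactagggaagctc
Cdc20: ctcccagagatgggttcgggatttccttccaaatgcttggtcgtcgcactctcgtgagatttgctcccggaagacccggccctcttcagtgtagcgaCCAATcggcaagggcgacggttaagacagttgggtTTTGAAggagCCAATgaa
Ccnb2: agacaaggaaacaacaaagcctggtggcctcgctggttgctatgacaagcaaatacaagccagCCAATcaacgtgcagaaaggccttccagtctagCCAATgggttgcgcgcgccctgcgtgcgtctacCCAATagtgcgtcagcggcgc
Mcm6: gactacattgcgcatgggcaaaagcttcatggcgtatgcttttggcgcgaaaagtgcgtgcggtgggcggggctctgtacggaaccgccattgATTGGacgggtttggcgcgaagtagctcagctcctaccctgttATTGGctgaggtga
Prim1: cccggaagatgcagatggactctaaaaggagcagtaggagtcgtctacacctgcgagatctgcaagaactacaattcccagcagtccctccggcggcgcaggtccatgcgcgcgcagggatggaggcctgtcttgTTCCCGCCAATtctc

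The Cdk1 window held 2 cell cycle homology regions and 2 CCAAT boxes, and the Top2a window held 1 and 4. In Cdc20 there were 1 and 2. Of the marked strings, Ccnb2 and Mcm6 held only CCAAT boxes, 3 and 2 of them. GCGGGAA was the only form of the E2F site searched, so other forms in these windows were not counted. The window of Prim1 held 1 E2F-type site on the minus strand that overlaps its only CCAAT box. The same motifs were counted in the 250 bases before every start in the table, which gave 55 promoters for 50 of the 59 higher mitosis genes and 25 for 21 of the 29 higher replication genes. CCAAT stood in 69.1% of the mitosis promoters and 64% of the replication promoters, against 33.8% of all 32851 promoters. TTTGAA stood in 34.5% and 12%, against 16%, and GCGGGAA in 7.27% and 24%, against 3.82%. Motifs of other factors were counted too. The EGR-type GTGGGCG stood in 16.4% of the mitosis and 24% of the replication promoters, against 7.02%. The forkhead TGTTTAC stood in 9.09% and 4%, against 3.17%, and the NR4A-type AAGGTCA in 0% and 4%, against 4.08%. A raised share was thus not limited to the cell cycle elements. The rarer motifs rest on few promoters: GCGGGAA stood in 4 mitosis and 6 replication promoters, and TGTTTAC in 5 and 1. The promoters of all genes include genes not measured here. The 29 promoters of 22 of the 25 lower genes of the naive programme held CCAAT in 34.5% and TTTGAA in 10.3%. For higher transcription factors induced by the T cell receptor, 20 promoters of 11 genes held CCAAT in 45% and TTTGAA in 0%. The motifs were picked after the gene values were seen, promoters of 1 gene overlap, and a match describes letters, not a bound factor. In the 100 bases before the start the share with CCAAT was 54.5% for mitosis, 60% for replication and 18.9% for all promoters, whereas GCGGGAA was down to 4% of the replication promoters. In that window GTGGGCG stood in 14.5% of the mitosis and 20% of the replication promoters, against 4.07% of all.

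Regulators of the entry into S phase were called higher in 16 of 32 measured cases and lower in 2, with a median log2 difference of 1.02. Cks2, a subunit of cyclin-dependent kinase complexes, read 140.1 on the CL4-TCR array and 2365 on the double-transgenic array, a 16.9-fold difference, and its other probe set gave a log2 difference of 4.22. Its relative Cks1b was 11.5-fold higher, at 451 and 5193. Cyclin A2 (Ccna2) and its kinase Cdk1 were under the floor in CL4-TCR cells, at 15.9 and 4.3, and reached 490.4 and 337, so they were at least 15.5-fold and at least 10.6-fold higher. The activating factor E2f2 was 6.90-fold higher and cyclin E1 (Ccne1) 2.88-fold. The D-type step, which links outside signals to the cycle, was mixed: Cdk6 and Cdk4 were 2.71-fold and 2.06-fold higher, cyclin D2 (Ccnd2) read 3569 and 3218, and cyclin D3 (Ccnd3) was 2.03-fold lower by its chosen probe set while another of its 3 probe sets gave -0.01. The inhibitor Cdkn2d was 2.04-fold lower and Cdkn2c 2.08-fold higher. Cdkn1b (p27), the inhibitor typical of resting T cells, read 479 and 345, under the 2-fold line.

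The DNA replication machinery had 29 of 46 measured members called higher and none lower, with a median of 1.48. Pclaf, which binds the sliding clamp, read 91.4 and 2137, a 23.4-fold difference by its only measured probe set of 3. Cdc6, which loads the replicative helicase, read 12.9 and 444, and was at least 14.0-fold higher. Of the helicase subunits, Mcm6 was 5.70-fold higher (383 and 2182), and its measured probe sets gave 2.41 and 2.51. Mcm5, Mcm3, Mcm4 and Mcm7 were 3.38-fold, 3.10-fold, 2.74-fold and 2.01-fold higher, and Mcm2 was 1.92-fold higher, just outside the line. The probe sets of Mcm7 disagreed, from -0.61 to 1.07. Prim1, the primase subunit whose promoter is shown above, read 314 and 1205, and its 2 probe sets gave 1.88 and 1.94. Some members with high signals on the CL4-TCR array stayed under 2-fold: the sliding clamp Pcna read 2365 and 4166, the licensing factor Cdt1 2498 and 2439, and the single-strand binding protein Rpa1 5124 and 5356.

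Nucleotide supply was less uniform, with 9 of 29 measured genes higher, 2 lower and a median of 0.70. Rrm2, the regulated subunit of ribonucleotide reductase, read 39.8 on the CL4-TCR array and 1499 on the double-transgenic array, with 2578 on the third. At 37.7-fold it had the highest ratio of any gene above the floor on both arrays, and its 3 probe sets ranged from 3.03 to 5.24. Its partner Rrm1 was 3.65-fold higher by the chosen probe set while another gave -0.12. Shmt1, Dut and Paics, enzymes of folate, thymidine and purine metabolism, were 4.82-fold, 3.77-fold and 2.50-fold higher. The lower members were the guanine nucleotide enzyme Impdh1, 2.14-fold, and the nucleoside diphosphate kinase Nme1, whose probe sets gave -1.74 and 0.89 and so do not settle a direction.

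Mitosis genes had the highest share of higher calls of any list: 59 of 75 measured were higher, none were lower, and the median was 2.13. In 36 of the 59 the CL4-TCR value lay under the floor. Mki67, the common marker of cycling cells, read 22.8 on the CL4-TCR array, 2197 on the double-transgenic array and 3191 on the third, and was thus at least 69.3-fold higher. Cyclin B2 (Ccnb2) was at least 34.0-fold higher, at 26.3 and 1078. Topoisomerase II (Top2a), which untangles replicated chromosomes, read 57.6 and 1184, with its other measured probe set at 1.66. The chromosome passenger Cdca8, the cohesion factor Cdca5 and the microtubule regulator Stmn1 were 20.1-fold, 22.5-fold and 18.6-fold higher. Among genes of the spindle checkpoint, Bub1b was at least 17.2-fold higher, and Cdc20, the activator of the anaphase-promoting complex, was 5.06-fold higher at 400.5 and 2028. The separase inhibitor Pttg1 was 9.32-fold higher, and all 3 of its probe sets passed 2-fold. The kinases and motors followed, among them Aurkb at least 6.51-fold, Birc5 6.75-fold and Cenpe at least 14.3-fold higher. Kif2c showed a wide disagreement, from -0.81 to 3.36. Another 16 genes stayed under 2-fold, including the condensin subunit Smc4 (4931 and 6695) and Bub3 (2728 and 2686), both well expressed in the CL4-TCR cells, and Racgap1 (495 and 399) and Kif23 (316 and 239).

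**Figure D2:**
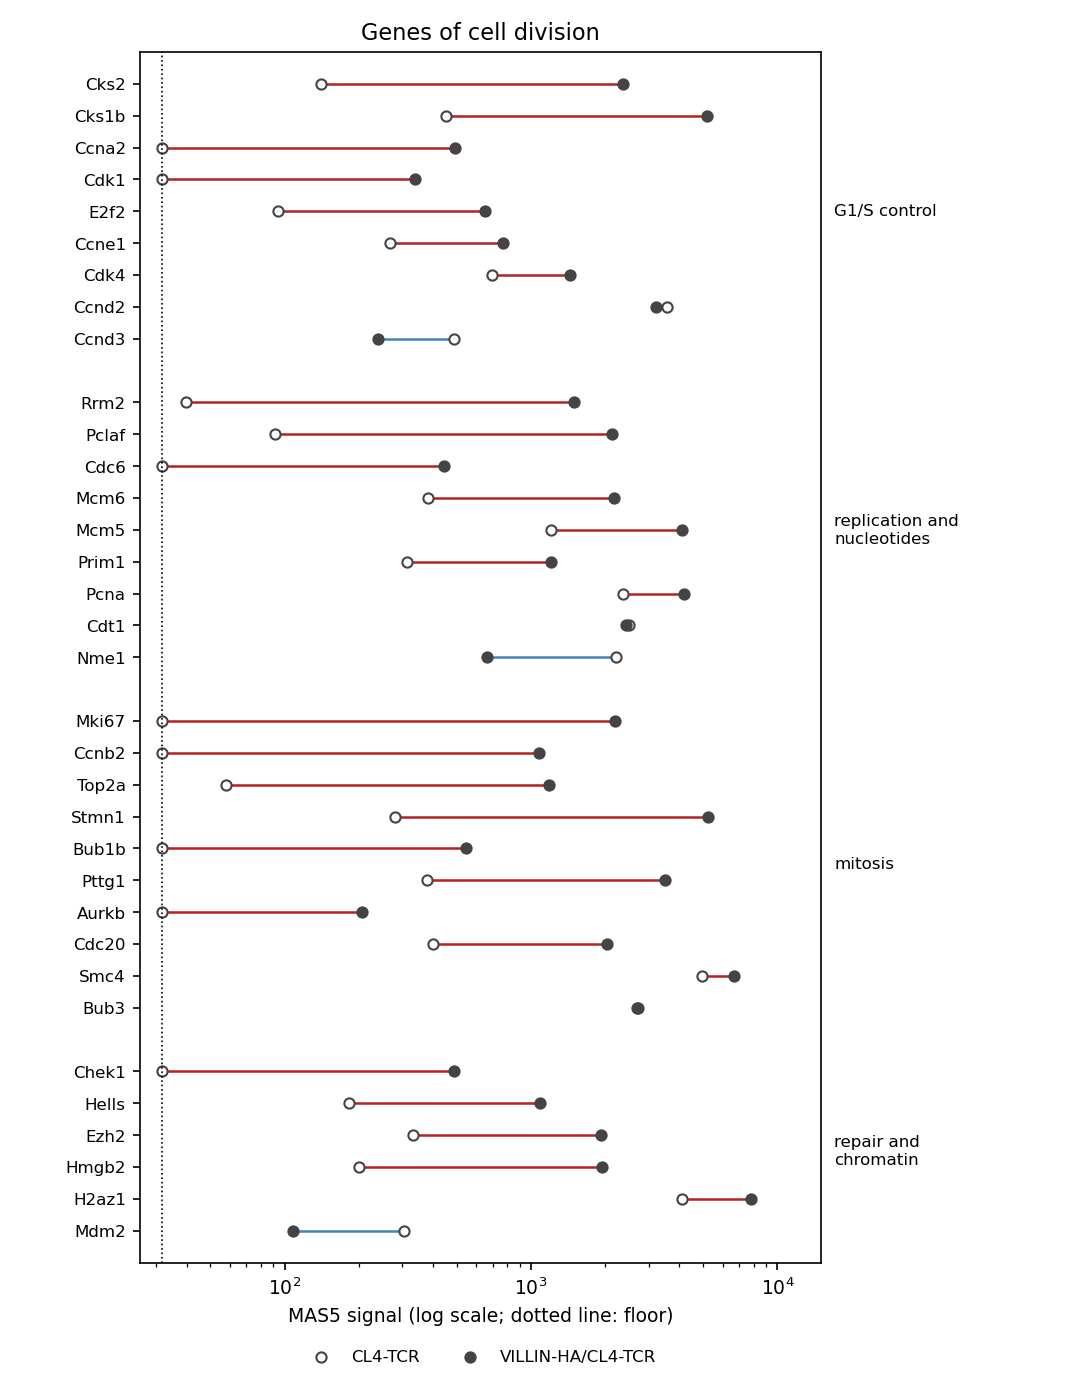
Signal on a log axis of genes of cell division on the CL4-TCR array (open) and the double-transgenic array (filled), 1 array each, with a red line where the second is higher and a blue one where it is lower, and values under the floor drawn at the dotted line. Most genes ran from near the floor to far above it, as Mki67 did from 22.8 to 2197, whereas Ccnd2, Cdt1, Smc4 and Bub3 were high on both arrays.

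DNA repair and checkpoint genes were called higher in 17 of 37 cases and lower in 1, with a median of 0.86. Chek1, the kinase that answers stalled replication, read 4.5 and 487 and was at least 15.4-fold higher, with probe sets from 0.61 to 3.94. The helicase Hells was 5.95-fold higher and its 3 probe sets ran from 1.71 to 2.57. Brca1 was 7.61-fold higher by 1 probe set and 0.17 by another. The lower gene was Mdm2, the inhibitor of p53, 2.83-fold lower with a second probe set at 0.02. Chromatin genes of dividing cells were higher in 8 of 29 cases and lower in none. Ezh2, which writes repressive histone H3 methylation, read 333 and 1929, Hmgb2 was 9.67-fold higher by its brightest probe set with another at 0.41, and Uhrf1, which passes DNA methylation to the new strand, read 35.5 and 196. The de novo methyltransferase Dnmt3a was 2.61-fold higher in the VILLIN-HA/CL4-TCR cells, at 482 and 1258, with its 5 probe sets between 1.23 and 1.86, and read 212 on the third array. The maintenance enzyme Dnmt1 read 1358 and 1375.

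Transcription factors induced by the T cell receptor were called higher in 18 of 39 cases and lower in 1, with a median of 0.91. Irf4, which scales with receptor signal strength, read 49.6 on the CL4-TCR array, 887 on the double-transgenic array and 339 on the third, a 17.9-fold difference between the first pair. Irf4 rests on 1 measured probe set of 2. The orphan receptor Nr4a1 was 15.1-fold higher (107 and 1608), Nr4a3 was 7.33-fold higher (154 and 1127), and Nr4a2 at least 10.5-fold, with 6 probe sets from -0.26 to 3.39. Egr2, a factor of T cell unresponsiveness as well as of activation, read 217, 1693 and 206 on the 3 arrays, and Egr3 read 329, 2276 and 538. Both were thus highest on the double-transgenic array, and the 2 probe sets of Egr2 gave 2.56 and 2.96 against CL4-TCR while those of Egr3 were at -0.63 and 2.79. Egr1 was 2.87-fold and Fos 15.2-fold higher. Tox2, a relative of the exhaustion factor Tox, read 60.7 and 953, while Tox itself read 359 and 617. Irf8 was 7.79-fold higher and Pou2af1 2.64-fold, genes that macrophages and B cells respectively also express, and the share of those cells in these values was not tested. Not every factor of activation differed: Myc, Junb, Batf and Ier2 differed by at most 1.38-fold, and Nfatc2, which carries the calcium signal, was 2.46-fold lower by its only measured probe set of 6.

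Ikzf2 (Helios), an Ikaros family factor known from regulatory T cells and from T cells that see self antigen, was called higher. It read 361 on the CL4-TCR array, 5757 on the double-transgenic array and 2029.7 on the third, a 16.0-fold difference between the first pair. Its 3 probe sets ran from 1.23 to 4.50, so all were past 2-fold. Ikzf4 (Eos) and Ikzf3 (Aiolos) were 2.90-fold and 3.54-fold higher, and Ikzf1, the founding member, read 3647 and 2991. Foxp3, the factor that defines CD4 regulatory T cells, read 29.6 and 38.2, next to the floor. Of 27 measured genes associated with regulatory T cells, 16 were called higher and none lower, with a median of 1.30; many of these genes are also induced by activation. The study is known to have singled out Itgae, Nrp1, Tnfrsf9 and Pdcd1 on these arrays, so their values are not independent evidence of a regulatory state. Nrp1, a semaphorin receptor, read 48.9, 510.0 and 96.2 on the 3 arrays, and its 4 probe sets lay between 1.40 and 3.38. Il2ra (CD25) read 12.3 and 114, at least 3.60-fold higher but still dim, and Tnfrsf18 (GITR), usually high on regulatory T cells, read 281 and 229.6.

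Inhibitory receptors were higher in 7 of 20 cases and lower in 2. Cd160 read 74 and 1603, a 21.7-fold difference with all 4 probe sets past 2-fold. Ctla4, which competes for the ligands of CD28, read 16.9, 449 and 4179.7 on the 3 arrays, so that it was at least 14.2-fold higher than in CL4-TCR cells while the third array was far above both. Pdcd1 (PD-1) was 11.5-fold higher at 53.6 and 614, and read 359 on the third. Lag3 and Cd200 were at least 8.49-fold and at least 9.53-fold higher. The ectoenzyme Nt5e (CD73), which makes adenosine, was at least 4.83-fold higher. In contrast Btla, present on resting cells, read 1144 and 1741, and the collagen receptor Lair1 and Cd200r4 were 3.11-fold and 2.58-fold lower. Costimulatory molecules and the TNF superfamily had 15 of 28 measured members higher and 1 lower. Tnfrsf9 (4-1BB) read 53.1 and 853, Icos 261 and 2013, and Tnfsf11 (RANK ligand) 2.9 and 385, which are differences of 16.1-fold, 7.72-fold and at least 12.2-fold. Cd83 was at least 25.6-fold higher, a gene also made by dendritic cells and B cells. Slamf6 was 5.01-fold higher at 621 and 3112 with probe sets from 1.37 to 2.33. Ltb (lymphotoxin beta), typical of naive cells, was the member that went the other way, 3.55-fold lower at 2582 and 728.

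**Figure D3:**
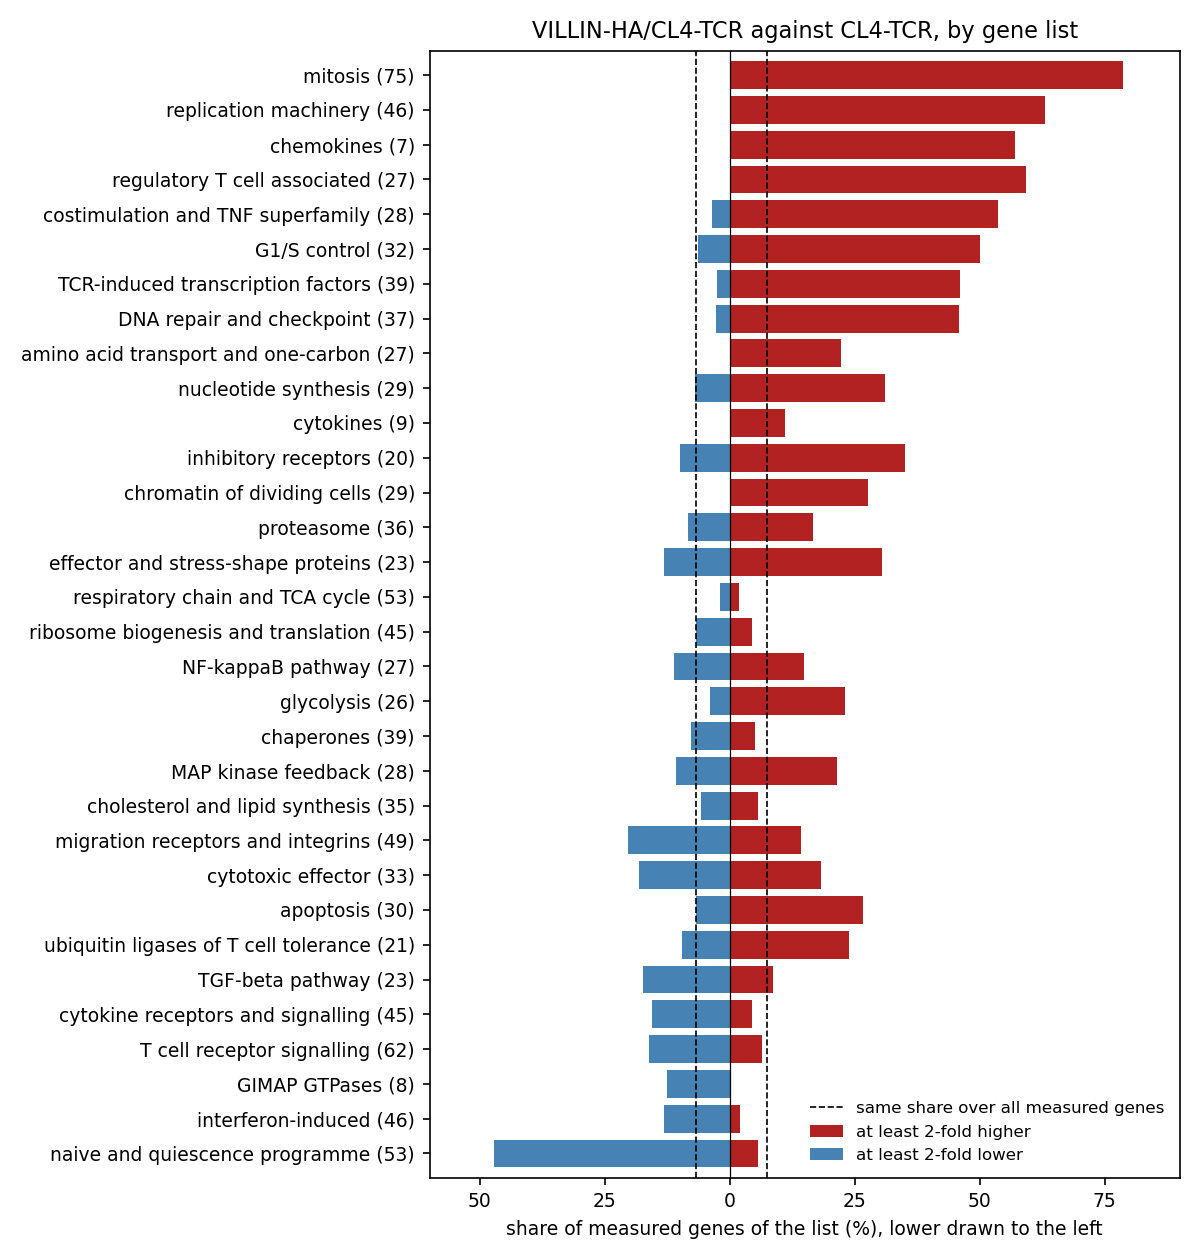
Share of the measured genes of each list, in percent, that were at least 2-fold higher (red, to the right) or lower (blue, to the left) on the double-transgenic array, with the number measured in brackets, lists ordered by median log2 difference and dashed lines at the shares over all measured genes. Mitosis (59 of 75 higher) stands at the top and the naive programme (25 of 53 lower) at the bottom, and the lists were chosen with results of these arrays known.

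Feedback regulators of MAP kinase signalling split, with 6 of 28 higher and 3 lower. Over all measured genes the shares were 7.43% higher and 6.63% lower. Spry1 read 35.7 and 479, a 13.4-fold difference, and the phosphatases Dusp4 and Dusp5 were at least 7.04-fold and at least 3.77-fold higher, whereas Dusp7 and the Ras GTPase activating proteins Rasal3 and Rasa3 were 4.46-fold, 2.84-fold and 2.30-fold lower. The NF-kappaB pathway had 4 of 27 members higher, Rel, Nfkb2, Nfkbie and Tnfaip3, and 3 lower, Malt1, Map3k14 and Traf5. Malt1, the protease that connects the receptor to NF-kappaB, read 1060.0 and 395, with 3 probe sets between -1.69 and -1.42. Nfkbia, the inhibitor, read 7411 and 9023.

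The naive and quiescence programme had the lowest median of all lists: 25 of 53 measured genes were called lower and 3 higher, at -0.84. Igfbp4, a secreted binder of insulin-like growth factors that marks naive T cells, read 4167 on the CL4-TCR array, 258 on the double-transgenic array and 716 on the third. It was 16.2-fold lower and its 5 measured probe sets ranged from -4.63 to -2.10, each past 2-fold. Socs3, an inhibitor of cytokine signalling, was 8.32-fold lower at 3452 and 415, while the third array read 2794, close to CL4-TCR. Klf2, the factor that keeps T cells circulating, read 3906 and 686, and its target S1pr1, the exit receptor of lymph nodes, and Ccr7, the entry receptor, were 3.30-fold and 2.67-fold lower. Il7r, the survival receptor of resting cells, read 5515 and 1359 with probe sets at -2.79 and -2.02. The complement regulator Cd55 was at least 8.66-fold lower, and Tent5a, Klf3, Dapl1, Txnip and Foxo1 were between 2.30-fold and 8.37-fold lower. Genes of naive T cell identity that hold the lineage differed less: Lef1 read 1553 and 916, Satb1 6248 and 3846, Bach2 1124 and 1369 and Foxp1 1804 and 2090.4. The higher members were Id3, 4.72-fold at 458 and 2159.6, Sox4, 4.81-fold at 152 and 732, and Klf10, 2.47-fold. On the third array Id3 and Sox4 read 222 and 36, below CL4-TCR.

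The receptor complex itself was near even, while several proximal adaptors were lower. Cd3d and Cd3g read 1.25-fold and 1.26-fold higher, and Cd3e and Cd247 1.47-fold and 1.45-fold lower, all within 2-fold. Of 62 measured genes of T cell receptor signalling, 10 were called lower and 4 higher, with a median of -0.28. The 4 higher calls lie near the share over all measured genes, 7.43%. Lat, the scaffold that Zap70 phosphorylates, read 2432 and 653, a 3.72-fold difference, and Zap70 read 1005 and 757. The adaptor Sit1 was 6.54-fold lower (381 and 58.3), the kinase Txk 4.34-fold lower and Cd2 3.23-fold lower (2308 and 714). Pik3cd and Akt1 were 4.96-fold and 3.16-fold lower by the brightest probe set, but other probe sets of each gave -0.35 and -0.21. Vav3, Trat1, Skap2 and Ptpn22 were the members called higher, from 2.08-fold to 2.88-fold. Genes linked to T cell tolerance through ubiquitin ligases were called higher in 5 of 21 cases and lower in 2, with a median of -0.14: Ndfip1, an activator of Itch, was 2.27-fold higher, Cblb and Rnf128 stayed under 2-fold, and Dtx1 was 3.31-fold lower.

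Cytokine receptors and their signalling had 7 of 45 members lower and 2 higher, Il2ra and the kinase Jak2. These higher calls fall below the share of 7.43% over all measured genes. Beside Il7r and Socs3, the lower ones were Il18r1 (7.10-fold), Il6ra (7.50-fold), Il17ra (4.56-fold), Il18rap and Il4ra. Il6ra read 252 and 33.6, the latter next to the floor, and its other probe set gave -0.95. Il17ra read 1893 and 416 with probe sets at -2.19 and -2.03. Genes of the TGF-beta pathway were lower in 4 of 23 cases, the inhibitor Smad7, the corepressor Ski, the ligase Smurf1 and the coreceptor Eng, and higher in 2, among them Itgae, a target of the pathway. The 2 higher calls lie near the share of 7.43% over all measured genes. Smad7 read 1356 and 486, and its other probe set gave -2.17. The receptors Tgfbr2 and Tgfbr1 read 3962 and 2273, and 445 and 632.

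Genes of location and adhesion were called higher in 7 of 49 cases and lower in 10. Itgae (CD103), the integrin that binds epithelial E-cadherin, read 595 on the CL4-TCR array, 4012 on the double-transgenic array and 2600.3 on the third, and its 2 probe sets gave 2.75 and 2.87. Its beta chain Itgb7 moved the other way by its only probe set, 3.87-fold lower at 2499 and 646. Cd44, a receptor of antigen-experienced cells, was 4.42-fold higher, and Cd69, which retains cells in tissue, 3.14-fold. The gut chemokine receptor Ccr9 read 2976 and 5404, but its 5 probe sets ran from -1.08 to 1.51 and so give no direction. Lower were Cxcr4 (7.52-fold, 866 and 115), St3gal6, which builds selectin ligands (8.50-fold by its chosen probe set, -0.38 by another), Gpr183 (2.73-fold) and Cxcr3 (2.34-fold, with 2753 on the third array). The Cxcr4 value rests on its only probe set.

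Effector functions were uneven, with 6 of 33 measured cytotoxic genes higher and 6 lower. Granzymes were dim on both arrays: granzyme B (Gzmb) read 14.6 and 49.3 and granzyme A (Gzma) 90.1 and 83.3, whereas the third array read 12078 and 18077. Perforin (Prf1) read 525 and 98.9, a 5.31-fold lower value, with its other probe set at -0.95. The T-box factor Eomes was 5.38-fold lower (993 and 185, probe sets at -2.43 and -2.52), and its relative Tbx21 (T-bet) was 2.77-fold higher at 66.5 and 184. Klrd1 (CD94), an NK-type receptor, read 2276 and 189.5, a log2 difference of -3.59, and read 2071 on the third. Klrd1 rests on 1 probe set. Nkg7 and Ctsw, granule genes of all CD8 T cells, read 1896 and 1951, and 4175 and 3654. Higher were Stx11, needed for granule fusion (10.1-fold), and the granzyme inhibitor Serpinb6b (3.75-fold). Interferon gamma (Ifng) read 4.2 and 58.7, at least 1.85-fold, and 632 on the third.

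Chemokines were few but 4 of 7 measured were higher. Xcl1, which attracts cross-presenting dendritic cells, read 2.6, 1068 and 295 on the 3 arrays and was at least 33.7-fold higher. Ccl5, Ccl4 and Ccl3 were 4.30-fold, 3.64-fold and at least 2.63-fold higher. Among proteins of cell shape and effector memory, 7 of 23 were higher and 3 lower. Galectin 1 (Lgals1) read 379.9 and 3163 with probe sets at 2.12 and 3.06, Lgals3, also a macrophage gene, was at least 10.5-fold higher, and Anxa2 was 8.04-fold higher by 1 probe set while the other gave -0.57. Anxa6 and Emp3 were 4.48-fold and 3.02-fold lower.

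**Figure D4:**
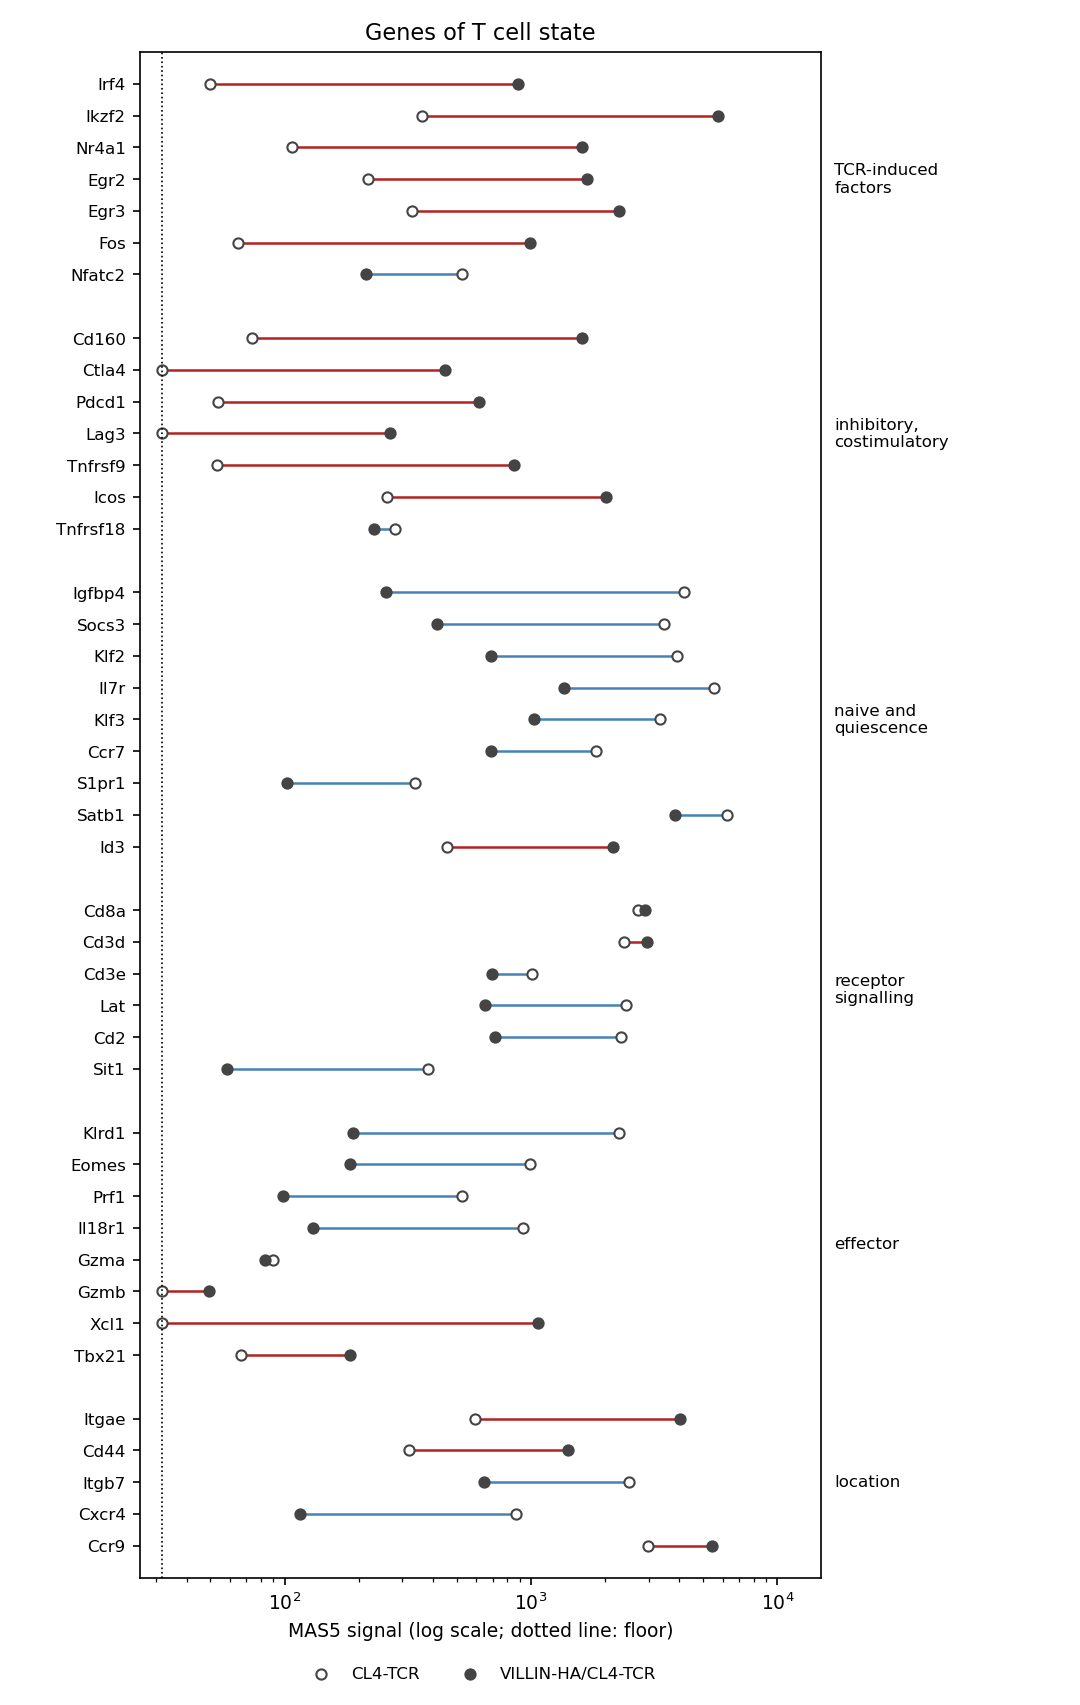
Signal on a log axis of genes of T cell state on the CL4-TCR array (open) and the double-transgenic array (filled), 1 array each, drawn as for cell division. Helios (Ikzf2, 361 and 5757) and Igfbp4 (4167 and 258) moved in opposite directions, Cd8a stayed at 2714 and 2893, and Gzma and Gzmb were dim on both arrays.

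Interferon-induced genes leaned downward: 35 of 46 measured read below 0, 6 were called lower, 1 was called higher, and the median was -0.49. Oas2, Psmb8, Irf7, Gbp2 and Irf1 were 4.06-fold, 2.37-fold, 2.28-fold, 2.09-fold and 2.03-fold lower, together with Gbp7. The exception was Ifi27l2a, 4.06-fold higher at 295 and 1198. Of 36 measured proteasome members 29 read above 0 and 6 were called higher, such as Psmb7 (158 and 454) and Psmd1 (438 and 958). The 3 called lower were the interferon-induced subunits Psmb10 (1433 and 452) and Psmb8 (1470.0 and 619.9) and the activator Psme1 (2144 and 687), and the third immunoproteasome subunit, Psmb9, read 1976 and 1426. Psmb7 is the standard subunit that Psmb10 replaces. Each of Psmb7, Psmb9, Psmb10 and Psme1 rests on 1 probe set.

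Regulators of cell death were called higher in 8 of 30 cases and lower in 2. The 2 lower calls lie near the share of 6.63% over all measured genes. Bcl2l11 (Bim), which kills T cells after strong or self-directed receptor signals, read 1381 and 5393, with 5 probe sets from 0.54 to 2.02. Its relative Bmf was 4.93-fold higher, and the survival factor Bcl2l1 (Bcl-xL) was 3.90-fold higher at 111 and 434. Bcl2 and Mcl1 stayed under 2-fold, and Bbc3 (Puma) was 4.15-fold lower. The inflammatory caspases Casp4 and Casp1 were 13.9-fold and 2.61-fold higher, and macrophages also express both.

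Among metabolic lists, glycolysis had 6 of 26 higher and 1 lower: hexokinase 2 (Hk2) read 75 and 302, Pgam1 416 and 1256 and Pgk1 3048 and 6755, whereas the glucose transporters Slc2a1 and Slc2a3 read 1.45-fold lower and 1.01-fold higher and Pdk1, which keeps pyruvate out of mitochondria, was 2.21-fold lower. For amino acids and one-carbon units 6 of 27 were higher and none lower. Psat1 of serine synthesis was 3.63-fold, Odc1 of polyamine synthesis 3.17-fold and the arginine transporter Slc7a1 2.79-fold higher, the latter with a probe set at -0.68. The transferrin receptor Tfrc, which brings in iron, read 375 and 1478. In the respiratory chain and citric acid cycle 48 of 53 members read above 0, with a median of 0.45, yet 1 was called in each direction, Ndufv2 (2.04-fold higher) and Idh2 (2.73-fold lower). Their shift was thus broad and small. Chaperones, ribosome biogenesis and cholesterol synthesis each had 2 members called higher and 2 or 3 lower, near the share over all genes.

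Outside these lists, genes with several probe sets that all differed by 2-fold or more are the best supported by the arrays. Fabp5, a fatty acid binding protein, read 448 on the CL4-TCR array, 5315 on the double-transgenic array and 3851 on the third, with probe sets at 3.57 and 3.62. Endod1, a nuclease-like protein, was 23.3-fold higher (84 and 1954) and its 5 probe sets ran from 3.33 to 4.54. Cd24a read 67.3 and 852, a gene of immature and activated lymphocytes that B cells also express. Itm2a, a membrane protein induced by receptor signals, read 1228, 7309 and 1242 on the 3 arrays. Hacd1 followed the same pattern, with 111, 942 and 112, and Arhgap20 read 4, 152 and 13.9, so each of these genes read highest on the double-transgenic array. Niban1, Ccdc50, Tbc1d4, Mmd, Ypel2, Adamts6, Tspan6 and Ybx3 were between 3.65-fold and 9.61-fold higher, and Capn3, the last of the 15, at least 5.28-fold.

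On the lower side, Pxylp1 read 1056 and 157 with measured probe sets at -2.75 and -2.73, and the membrane protein Sidt1 read 607 and 91.7. Hid1 read 453 and 2.5 and was at least 14.3-fold lower. The semaphorin Sema4a read 1512, 349 and 116 on the 3 arrays. Abcb1a, a drug efflux pump, was 3.10-fold lower with probe sets at -1.63 and -1.61, and Orai2, a subunit of store-operated calcium channels, was 3.08-fold lower. The others were Pltp, Dnaja4, Gpr146, Cdc42ep3, Slco3a1, Fam102a, Stx1a, Gramd3 and AW011738, between 2.91-fold and 4.23-fold lower. Among genes picked for a large ratio of the brightest probe set alone, Wnt5b, Rcbtb2 and App were 7.68-fold, 7.46-fold and 7.15-fold lower. For Rcbtb2, 1 probe set gave 0.08. The other measured probe sets of Wnt5b and App gave -0.95 and -0.87.

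Of the 721 called genes with several measured probe sets, 589 had all of them on the same side of 0 and 216 had all of them past 2-fold in 1 direction. Full agreement was found for 131 of 401 higher genes (32.7%) and 85 of 320 lower genes (26.6%). Within 4175 genes, probe sets that cleared the floor on both sides had log2 differences with a pooled SD of 0.432. Probe sets under the floor on either array do not enter this SD. It covers the spread between probe sets read from the same libraries, not between animals, sorts or labellings. Another 862 called genes rest on 1 measured probe set. In 7 genes, Ccr9, Kcna2, Med1, Mxd4, Pdlim5, Rilpl1 and Vps35l, probe sets passed 2-fold in opposite directions. For Mxd4, a repressor of the Myc network, 3 probe sets gave 0.81 to 1.85 and the fourth -1.09, on a signal of 67.6 and 28.7, around the floor.

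**Figure D5:**
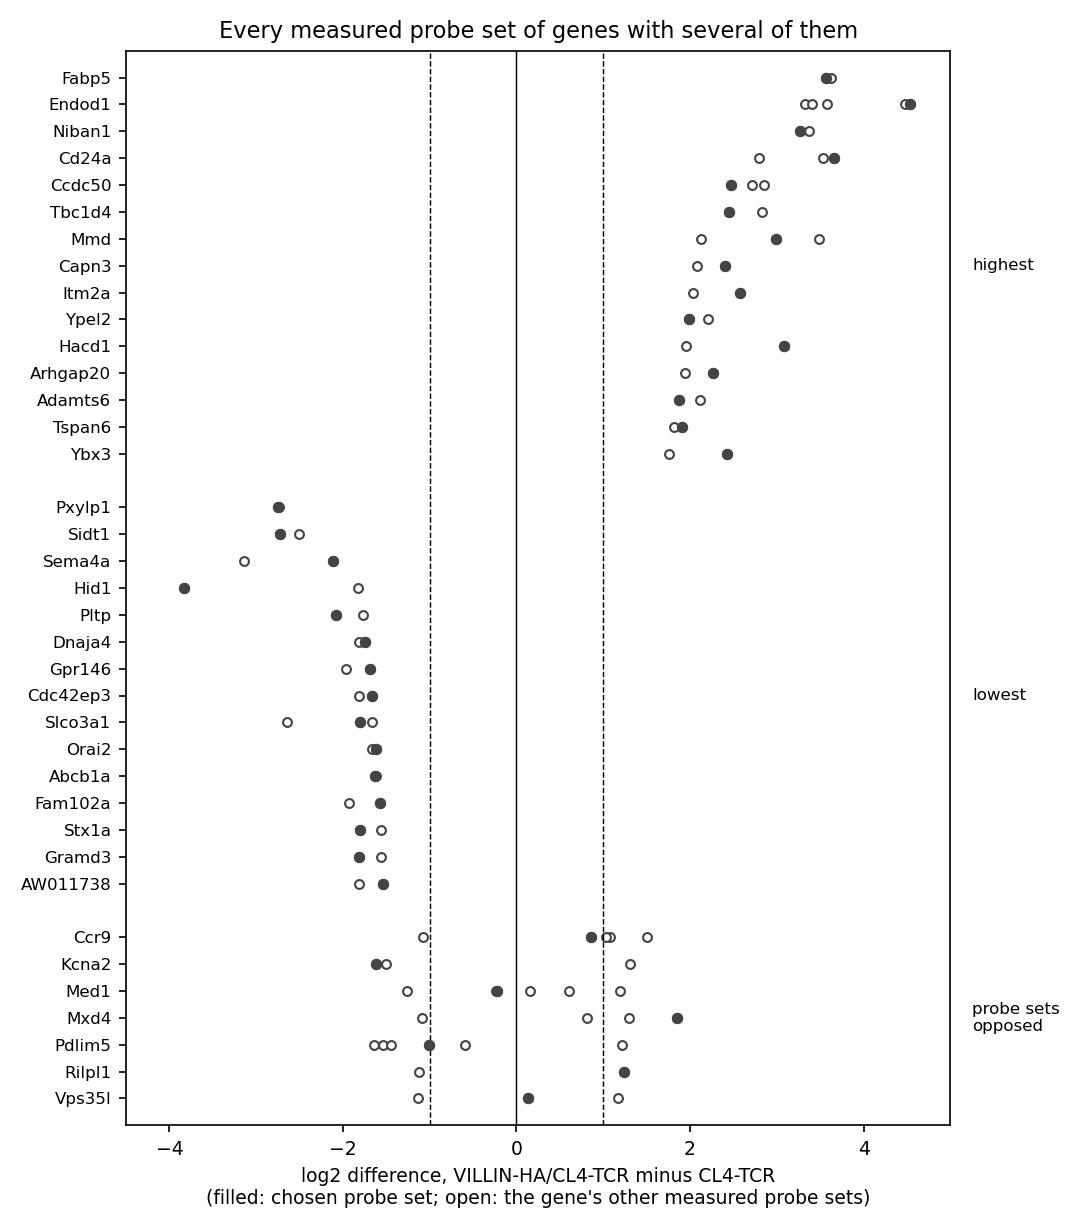
Log2 difference (VILLIN-HA/CL4-TCR minus CL4-TCR) of every measured probe set of the 15 highest and 15 lowest genes outside the lists whose probe sets all passed 2-fold, and of the 7 genes with opposed probe sets, with the chosen probe set filled, 0 solid and 2-fold dashed. Probe sets of Fabp5 (3.57 and 3.62) lie close together, those of Hid1 (-3.84 and -1.83) far apart on the same side, and those of Ccr9 on both sides.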

How the data were processed

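CD8 T cells of mice were measured on one-colour arrays with 45101 probe sets, 1 array for each of 3 samples, grouped by source name. The authors deposited MAS5 signals, an intensity on a linear scale, per the submitters' processing notes, and the trimmed mean was 150 on each array. The background step has its settings not given in the sources used here. Scaling each array alone hides any change common to nearly all transcripts. Probe sets were named through the platform's annotation, updated to RefSeq on GRCm38.p6: 34958 had 1 symbol, and the 932 with several and 9211 with none named no gene. Each of 18194 genes was represented by its probe set with the highest mean over the arrays, values were raised to the floor of 31.7, and 11260 genes were above it on either array. Calls were made at 2-fold, with no test. Genes were named by these rules: up to 12 called members per list with those against its majority, members that define a step, 15 genes per direction outside the lists with agreeing probe sets, the 10 largest ratios per direction, and genes with opposed probe sets. The members, the 46 lists and the motifs were chosen with earlier results of these data known. The calling step was checked on simulated signals. Alternatives were the floor, the scaling, the choice of probe sets and the promoter window. Python 3.11.15, NumPy 2.4.6, pandas 2.3.3 and SciPy 1.17.1 were used. The number of arrays limits the precision. Another 4242 measured probe sets without a single symbol were left out of the gene counts.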

Additional observations from a re-analysis of the deposited data

How the results depend on the processing

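The count of genes depended most on the floor, since a higher floor removes dim genes and shortens ratios by construction. With the floor at the 80th percentile, a signal of 199.1, 327 genes were higher and 277 lower, and 187 listed genes were called in place of 370. At the 65th percentile (68.6) the counts were 601 and 545, and 155 genes in place of 216 had all probe sets past 2-fold. Scaling both arrays to the same median gave 959 and 660, and quantile normalization 921 and 655, with 59.2% and 58.4% of calls higher against 52.9%. The median over probe sets, leaving out probe sets of types _x_at and _s_at, and asking for all probe sets on 1 side gave 706 to 795 higher and 660 to 755 lower genes. Without those probe set types 5 named genes changed direction: Kif2c (-0.81), Lyz1 (-0.12), Mcm7 (-0.61), Nme1 (0.89) and Rilpl1 (-1.12), and the cause was not tested. Of 233 called genes named in the text, 162 stayed past 2-fold in 1 direction under every setting that measured them. List counts moved by over 1.5 times in 19 of 182 cases, 18 of them at the 80th percentile and the other, cytotoxic genes called higher, at the 65th. Medians of several lists also moved by over 1.5 times, and the following are examples. For mitosis the median went from 2.13 to 1.25 and 0.96 at the 2 higher floors, and for replication from 1.48 to 0.94 at the 80th percentile. For DNA repair it went from 0.86 to 0.55 and 0.38 at the same 2 floors and 0.56 with the median over probe sets. At the 80th percentile costimulation went from 1.04 to 0.61. There the cytotoxic and migration lists changed sign, from 0.04 to -0.23 and from 0.08 to -0.22. With the median over probe sets nucleotide synthesis went from 0.70 to 0.28, and ubiquitin ligases of tolerance, at -0.14, read 0.07 at the 65th percentile and -0.04 with that median. No paired analysis was possible because each group holds 1 array. Without replicates, neither animals nor sorts are covered by any of these values, and sex, RNA length and markers of other cells differ between the arrays.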

Other observations

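Among gene groups not described above, the GIMAP GTPases, which support the survival of resting lymphocytes, read below 0 in 7 of 8 members, and 1 was called lower. Over all measured genes 6.63% were called lower. Gimap5 read 661 on the CL4-TCR array and 233 on the double-transgenic array, while Gimap4 read 7458 and 6938. Of 18 cytokine genes found on the array 9 were measured, and 1 of them was called, Tnf, 2.58-fold higher at 43 and 111. Such a count lies near the share of 14.1% called in either direction over all measured genes. Rgs16, which dampens chemokine receptor signals, read 12.4, 343 and 105 on the 3 arrays and was at least 10.8-fold higher than in CL4-TCR cells. Of lipid enzymes, the desaturase Scd2 was 2.56-fold higher and the acetate enzyme Acss2 2.60-fold lower. The chaperone Hspd1 of mitochondria was 2.15-fold higher and the heat-induced Hspa1b 3.21-fold lower, with another probe set at -0.22.

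Of genes whose higher signal lay between the floor and 100, 7.53% were called, a share limited by the floor since a gene must exceed it by 2-fold to be called, against 19.5% between 100 and 300, 16.7% between 300 and 1000, 14.6% between 1000 and 3000 and 9.76% above 3000. Of 4242 measured probe sets without a single gene symbol, 153 were at least 2-fold higher and 290 at least 2-fold lower, beside 1463 and 1685 of all 24504 probe sets.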
